A study of Mus musculus with 4 samples.

Results

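The genes described here make, bind and break down hyaluronan. They are the 3 hyaluronan synthases Has1, Has2 and Has3, the hyaluronidases Hyal1 and Hyal2, the receptor gene Cd44, the proteoglycan gene Vcan, and Tnfaip6, Hapln1 and Hapln3, whose products bind hyaluronan in the matrix. The 10 symbols were fixed by name, and each gene was represented by the array row that carries its symbol alone, with the highest mean where there were several. A row of this kind existed for 9 of the 10, among 19938 genes measured. Hyal1 has 2 rows, both shared with Naa80, which overlaps it, so no value is given for it. RNA was measured on 4 Affymetrix mouse arrays, 2 of cultured lung fibroblasts carrying KrasD12 and 2 of wild-type (WT) lung fibroblasts. The design text gives the allele as K-RasG12D, also calls the mutant SKY and gives an age of 3 to 4 weeks for the mice behind both lines. Both groups grew out of collagenase-digested lung in medium with 20% serum and received no treatment. The titles give 1 line per genotype, 493 for KrasD12 and 494 for WT, each with samples A and B, and a difference of genotype cannot be told apart from a difference of line. Nothing says that A and B are separate cultures, and p-values here measure only the spread between samples of a line, which may be technical. How the allele was switched on, and in which cells, is not given in the sources used here.

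Hyaluronan is a long, unsulfated sugar chain of alternating glucuronic acid and N-acetylglucosamine. It is polymerised at the plasma membrane by HAS enzymes from the nucleotide sugars UDP-glucuronic acid and UDP-N-acetylglucosamine, and is extruded as it grows. Outside the cell it is held by CD44, organised into a pericellular coat by versican and link proteins, cross-linked by heavy chains that TSG-6 (the product of Tnfaip6) transfers onto it, and cut into fragments by hyaluronidases. Fibroblasts are a main source of hyaluronan in the lung, and HAS2 is regarded as the chief synthase of mesenchymal cells.

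Values are log2 expression as deposited, and each difference is KrasD12 minus WT. The columns of the groups did not share 1 distribution: their medians were 6.24 and 6.26 in KrasD12 against 5.9 and 5.91 in WT, and the median difference of all genes was 0.26. This shift depended on signal, from 0.39 at means of 5 to 6 to -0.15 (-0.145) at means of 11 to 12. Each member is therefore set beside the median difference of the genes whose mean lies within 0.5 of its own. The words rose and fell are kept for genes that limma called in that direction (adjusted p under 0.05) on both scalings, meaning the deposited columns and the same columns quantile-normalized. A mean of 5.15, the dim level, is the level below which 95% of olfactory and vomeronasal receptor rows lay, by their means over the 4 arrays. The same cut was used for both lines without allowing for the column shift, which was 0.39 at means of 5 to 6. A gene with only its WT mean below the cut is therefore not read as switched on in KrasD12. Levels of different genes are not compared, since each array row has its own response. All 10 fibroblast markers (Col1a1, Pdgfra and Thy1 among them) had group means above the dim level in both lines, and on both scalings Pdgfra rose and Col1a1, Pdgfrb, Thy1 and S100a4 fell. Markers of other cell types were mixed. Of 8 epithelial genes Epcam and Scgb1a1 were below the dim level in both lines, while 4 (Sftpb, Nkx2-1, Krt8 and Krt18) were above it in both, and Sftpb and Sftpc rose. Of 6 endothelial genes Pecam1, Cdh5 and Kdr were below it in both lines and Tek and Cldn5 above it. Of 7 leukocyte genes Ptprc, Adgre1 and Itgam were below it and Cd68 and Cd3e above it, Adgre1 rose, and Csf1r and Lyz2 fell. In summed deposited log2 values, which carry the column shift, epithelial genes stood at 42.67 to 43.36 in KrasD12 and 39.21 to 39.33 in WT, endothelial genes at 32.25 to 32.41 and 29.86 to 30.76, leukocyte genes at 35.24 to 35.76 and 34.89 to 34.91, and the 6 mesothelial genes at 33.36 to 33.97 and 32.96 to 33.15. After quantile normalization the median difference was 0.17 for epithelial, -0.06 (-0.0606) for endothelial, -0.07 (-0.0725) for leukocyte and -0.31 (-0.3134) for mesothelial genes. The 7 smooth-muscle and pericyte genes summed to 46.46 to 46.7 in KrasD12 and 47.8 to 47.91 in WT and moved apart: Acta2 fell by 1.67 and Myh11 fell by 1.56, while Cspg4 rose by 0.755. The part of these levels in the results was not tested.

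On the deposited values 6 of the 9 measured members were called higher in KrasD12 and 0 lower (limma, with 0 also lower at an unadjusted p under 0.05). Over all genes 50.1% were called higher and 11.9% lower by the same rule. On both scalings 3 members rose, Hyal2, Hapln3 and Vcan, and 0 fell, against 22.4% and 11.5% of all genes. The members' differences ran from -0.01 to 0.685 with a deposited median of 0.30 and a quantile-normalized median of 0.06 (0.0575), beside 0.26 and 0.00 (-0.0038) for all genes. None differed by 2-fold. The members thus stood near the background of the arrays as a group, and the larger differences lay in the genes around them, Ptx3, Itih5, Cemip and Adamts9, described further on.

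**Figure D1:**
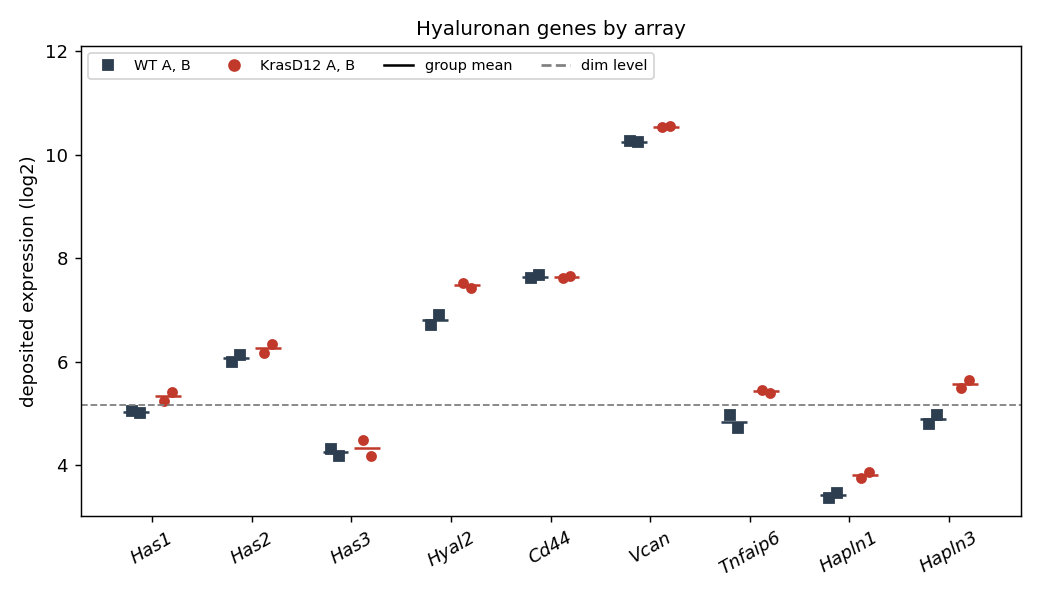
Deposited log2 expression (y axis) of the 9 measured hyaluronan genes in each array: squares are WT A and B, circles are KrasD12 A and B, short bars the group means and the dashed line the dim level of 5.15. Both KrasD12 arrays lie above both WT arrays for Has1, Has2, Hyal2, Vcan, Tnfaip6, Hapln1 and Hapln3, and the groups overlap for Cd44 and Has3. The plotted values carry the upward shift of the KrasD12 columns. The share of all genes without overlap is not given, so a lack of overlap is not read as a result.

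No synthase rose or fell. Has2, the synthase most tied to mesenchymal cells, was at 6.17 and 6.34 in KrasD12 A and B and at 6.00 and 6.12 in WT A and B. The groups did not overlap, but only 0.05 lay between them. Its difference was 0.195 ± 0.09 (± gives the moderated SE from limma throughout, n = 2 arrays per line, 95% interval -0.03 to 0.42, limma adjusted p = 0.111). Genes of like mean had a median difference of 0.355, and after quantile normalization Has2 stood at -0.14 (adjusted p = 0.216 by limma). Its direction therefore depended on the scaling.

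Has1, a synthase of low activity in most cells, was at 5.24 and 5.42 in KrasD12 and at 5.05 and 5.01 in WT. Both KrasD12 arrays lay above both WT arrays, and the WT mean was below the dim level. The difference of 0.30 ± 0.09 (limma adjusted p = 0.028) was called on the deposited values, but genes of like mean had a median of 0.41, and it turned to -0.09 after quantile normalization (adjusted p = 0.379), -0.11 after cyclic loess and -0.05 (-0.045) after centring the columns. Without KrasD12 A the deposited call of Has1 was kept (adjusted p = 0.0478), and without KrasD12 B, WT A or WT B it was lost (adjusted p of 0.084, 0.162 and 0.19). Has3, which makes shorter chains, was at 4.49 and 4.18 in KrasD12 and 4.31 and 4.18 in WT. These values overlapped and all lay below the dim level, so the array gives only weak evidence on its level. Its difference was 0.09 ± 0.12 (95% interval -0.22 to 0.40, limma adjusted p = 0.543) and -0.31 (-0.3125) after quantile normalization (adjusted p = 0.0669). All 3 synthases had a smaller difference than the median of genes of like mean.

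Hyal2, the hyaluronidase anchored to the cell surface that makes the first cuts in long chains, had the second largest deposited difference of the members, within the SE of Hapln3. It was at 7.52 and 7.43 in KrasD12 A and B and at 6.70 and 6.90 in WT A and B. Both KrasD12 arrays were higher, with 0.53 between the groups. The rise was 0.675 ± 0.09, or 1.60-fold (n = 2 per group, 95% interval 0.44 to 0.91, limma adjusted p = 0.00279). It was 0.425 after quantile normalization (adjusted p = 0.00957), 0.41 after cyclic loess (adjusted p = 0.0117) and 0.33 after centring (adjusted p = 0.0263). Its deposited difference lay above that of 87.8% of the 2849 genes of like mean, whose median was 0.24. With any array left out, limma no longer called Hyal2: its difference was 0.63 without KrasD12 A, 0.72 without KrasD12 B, 0.575 without WT A and 0.775 without WT B, with adjusted p of 0.0814, 0.0751, 0.0577 and 0.053. Such fits rest on 1 residual degree of freedom, and without either WT array limma called 0 of all 19938 genes, though 9846 and 10022 of them had an unadjusted p under 0.05. Without either KrasD12 array some other named genes, Tlr4 and Adamts1 among them, kept their calls while Hyal2 did not. In gene order Hyal2 lies next to Hyal1 on chromosome 9. Hyal3, a further hyaluronidase gene, was at 5.86 and 6.10 in KrasD12 and 5.77 and 5.51 in WT. Its difference of 0.34 ± 0.13 was not called (limma adjusted p = 0.0613) and was -0.03 after quantile normalization.

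Cd44, the principal cell-surface receptor for hyaluronan, was almost level across the 4 arrays on the deposited scale. It was at 7.62 and 7.65 in KrasD12 A and B and at 7.62 and 7.67 in WT A and B, so the groups overlapped. The difference was -0.01 ± 0.07 (95% interval -0.18 to 0.16, limma adjusted p = 0.904). Genes of like mean had a median of 0.198, and Cd44 stood at -0.21 (-0.2075) relative to that median. It was at -0.215 after quantile normalization (adjusted p = 0.0511) and -0.226 after cyclic loess (adjusted p = 0.0401). Centring, which subtracts 1 constant from each column whatever the signal, gave -0.355 (adjusted p = 0.00753). Whether Cd44 is called thus depended on the scaling. The row reads the gene as a whole, and the splice forms of CD44 cannot be told apart from it.

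Vcan encodes versican, a large chondroitin sulfate proteoglycan whose end domain binds hyaluronan. It was at 10.53 and 10.56 in KrasD12 A and B and at 10.26 and 10.25 in WT A and B. The samples of a line lay within 0.03 of each other, and 0.27 separated the groups. The rise was 0.29 ± 0.065 (1.22-fold, n = 2 per group, 95% interval 0.13 to 0.45, limma adjusted p = 0.0127). It was 0.33 after quantile normalization (adjusted p = 0.0106) and 0.32 after cyclic loess (adjusted p = 0.0116), but -0.06 (-0.055) after centring (adjusted p = 0.543). At this signal the deposited columns were level, with a median of -0.01 among the 668 genes of like mean, of which 79.6% had a smaller difference. Without KrasD12 A the call was kept (adjusted p = 0.0488), and without KrasD12 B, WT A or WT B it was lost, at adjusted p of 0.0566, 0.0699 and 0.0702. The array row does not separate the versican isoforms.

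Link proteins lock the complex of hyaluronan and a proteoglycan together. Hapln3, a link protein gene, was at 5.48 and 5.65 in KrasD12 A and B and at 4.80 and 4.96 in WT A and B. Both KrasD12 arrays were above both WT arrays by at least 0.52, and the WT mean lay below the dim level. The rise was 0.685 ± 0.10, or 1.61-fold (n = 2 per group, 95% interval 0.44 to 0.93, limma adjusted p = 0.00294), beside a median of 0.405 among genes of like mean. It was 0.29 after quantile normalization (adjusted p = 0.0367), 0.27 after cyclic loess (adjusted p = 0.0438) and 0.34 after centring (adjusted p = 0.0225). With an array left out the difference was 0.77 without KrasD12 A, 0.60 without KrasD12 B, 0.605 without WT A and 0.765 without WT B, with adjusted p from 0.0554 to 0.0748. Acan, the aggrecan gene that lies beside Hapln3 on chromosome 7, was at 5.18 and 5.37 in KrasD12 and 4.61 and 4.80 in WT. Its difference of 0.57 ± 0.10 was called on the deposited values (limma adjusted p = 0.00659) and not after quantile normalization (0.18, adjusted p = 0.18).

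Hapln1, the link protein gene beside Vcan on chromosome 13, was at 3.74 and 3.86 in KrasD12 and 3.37 and 3.46 in WT. The groups did not overlap, but every value lay far below the dim level. The difference of 0.385 ± 0.08 (limma adjusted p = 0.00956) was close to the median of 0.305 among genes of like mean and was 0.06 (0.0575) after quantile normalization (adjusted p = 0.586). Tnfaip6, the inflammation-induced gene of TSG-6, was at 5.45 and 5.40 in KrasD12 and 4.96 and 4.71 in WT. The WT mean was below the dim level, and 0.44 lay between the groups. Its difference of 0.59 ± 0.10 (1.51-fold, limma adjusted p = 0.00534) was called on the deposited values, and stood at 0.20 (95% interval -0.04 to 0.44, adjusted p = 0.145) after quantile normalization. Hapln1 and Tnfaip6 are therefore not counted as risen. With any array left out both also lost the deposited call, at adjusted p of 0.0589 to 0.103 for Hapln1 and 0.0552 to 0.118 for Tnfaip6.

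**Figure D2:**
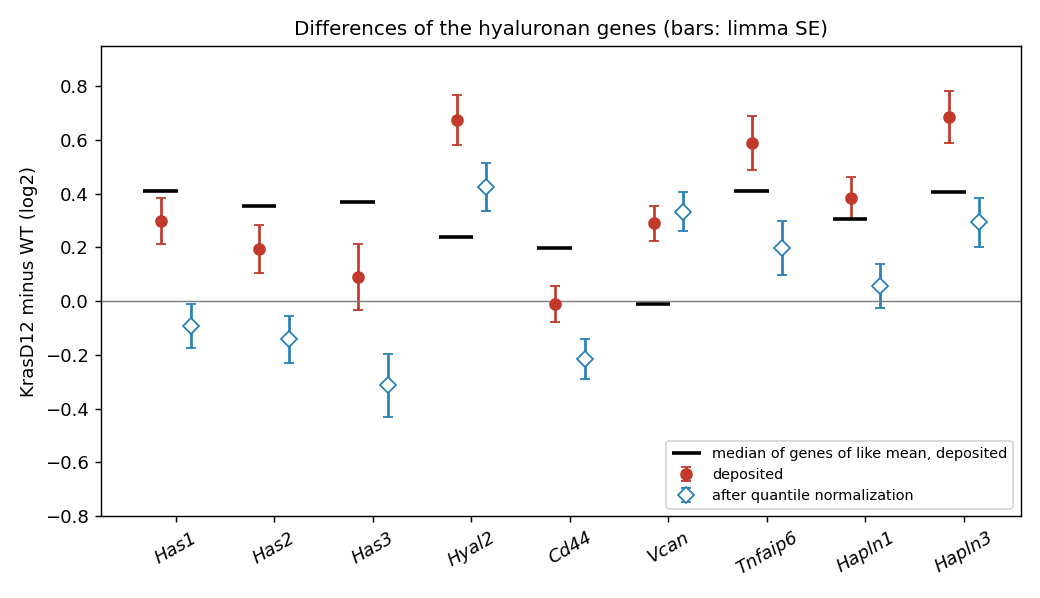
KrasD12 minus WT (y axis, log2) of each hyaluronan gene as deposited (filled circles) and quantile-normalized (open diamonds), with limma SE as bars; black bars mark the median deposited difference of genes of like mean. Hyal2, Vcan and Hapln3 stay above 0 on both scalings and were called on both. Tnfaip6 and Hapln1 also stay above 0 but were not called after quantile normalization. The synthases turn from above to below 0, and Cd44 is below 0 on both scalings.

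Promoter sequences were looked at for the 3 genes that rose, with Tnfaip6 beside them as a gene called on the deposited values only. RefSeq windows on GRCm38.p6 existed for 8 of the 10 members. Each run below holds the 250 bases before the listed start site, 5′ to 3′ on the gene's strand, with capitals for matches on either strand to TGANTCA (AP-1), CCGGAA (the ETS core), GGGCGG (SP factors) or TATAAA (a core promoter element). A gene can have other start sites, and for Hyal2, Hapln3 and Vcan the listed site lies inside the outermost limits of the gene.
Hyal2, chr9:107568913-107569162, plus strand: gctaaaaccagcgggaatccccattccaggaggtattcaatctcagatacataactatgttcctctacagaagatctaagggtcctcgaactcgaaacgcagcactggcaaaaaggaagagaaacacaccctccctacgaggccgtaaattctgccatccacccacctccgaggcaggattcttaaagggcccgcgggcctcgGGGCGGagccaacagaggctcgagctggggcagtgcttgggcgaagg
Hapln3, chr7:79131019-79131268, minus strand: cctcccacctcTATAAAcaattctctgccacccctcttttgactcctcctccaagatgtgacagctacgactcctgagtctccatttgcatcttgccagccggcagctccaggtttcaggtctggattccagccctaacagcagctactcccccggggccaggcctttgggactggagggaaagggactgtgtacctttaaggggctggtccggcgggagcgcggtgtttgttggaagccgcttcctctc
Vcan, chr13:89742513-89742762, minus strand: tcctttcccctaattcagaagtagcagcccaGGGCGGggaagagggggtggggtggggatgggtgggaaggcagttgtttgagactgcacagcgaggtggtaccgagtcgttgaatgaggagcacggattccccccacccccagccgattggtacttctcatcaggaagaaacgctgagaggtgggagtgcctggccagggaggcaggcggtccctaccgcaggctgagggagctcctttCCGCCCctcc
Tnfaip6, chr2:52037863-52038112, plus strand: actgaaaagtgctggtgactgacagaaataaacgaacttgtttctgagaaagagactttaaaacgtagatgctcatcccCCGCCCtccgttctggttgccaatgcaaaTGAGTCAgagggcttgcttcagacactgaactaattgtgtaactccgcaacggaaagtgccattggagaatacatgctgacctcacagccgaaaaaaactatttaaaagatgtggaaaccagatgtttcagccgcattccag
Vcan holds 2 GGGCGG matches and Hyal2 1, letters found in 32.7% of all 32851 windows of this length. Hapln3 holds 1 TATAAA match, 239 bases before the start and so at the far end of its window. Of all windows 12.4% hold such a match at any position on either strand. Of the 8 member windows Tnfaip6 alone holds TGANTCA, 142 bases before its start, which 6.75% of windows do, and it also holds 1 GGGCGG match. None of the 8 holds CCGGAA, found in 12.0% of windows. No motif of the 4 occurs in the windows of all 3 genes that rose, and a match is a run of letters, not a measured binding site. The Vcan window overlaps another gene, Gm4117.

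**Figure D3:**
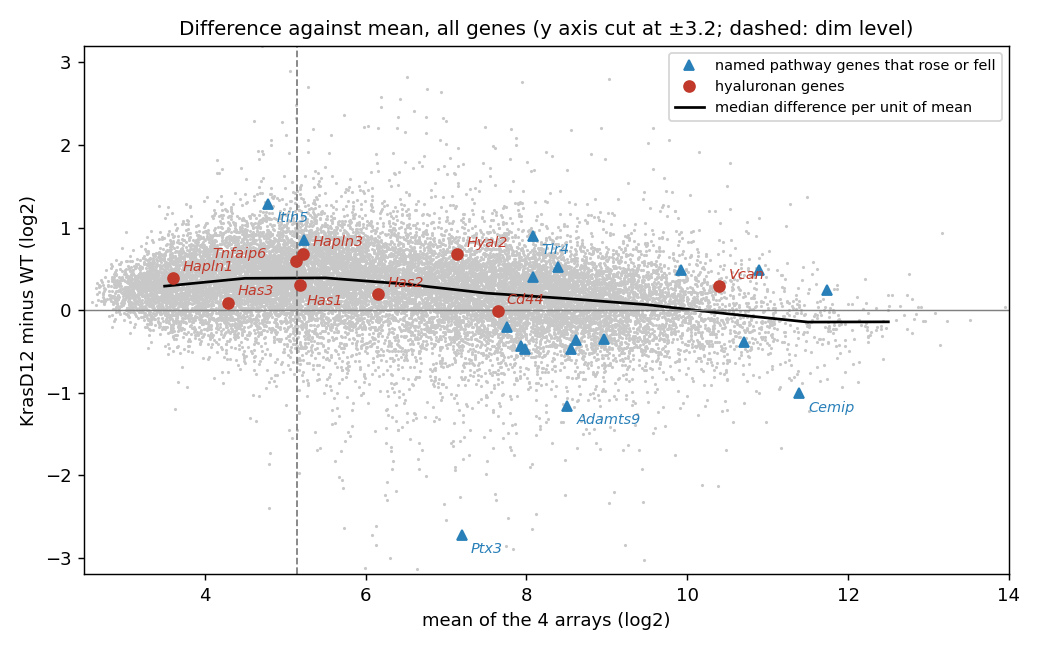
KrasD12 minus WT (y axis, log2) against the mean of the 4 arrays (x axis, log2) for all 19938 genes in grey, the hyaluronan genes as circles and named pathway genes as triangles; the black line is the median difference at each level. The members lie within the grey cloud. Hyal2, Vcan, Hapln3, Tnfaip6 and Hapln1 are above the line, the last of these only slightly. The synthases and Cd44 are below the line, and Ptx3 and Cemip lie far under it.

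Around the members, 52 further genes of the same metabolism, in 7 lists, were analysed. On both scalings 8 rose (15.4%) and 10 fell (19.2%), against 22.4% and 11.5% of all genes. The median difference of these 52 was 0.22 (0.2225) as deposited and -0.03 (-0.0344) quantile-normalized, near that of all genes.

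Of the 9 listed enzymes that supply the nucleotide sugars, 5 fell in KrasD12 (55.6%, against 11.5% of all genes) and 1 rose. Their median difference was -0.21 as deposited and -0.40 quantile-normalized, beside 0.26 and 0.00 for all genes. Gnpnat1, which acetylates glucosamine-6-phosphate, was at 7.82 and 7.68 in KrasD12 and 8.21 and 8.24 in WT, and fell by 0.475 ± 0.08 (limma adjusted p = 0.00465). Its other row differed by -0.555. Uap1, which makes UDP-N-acetylglucosamine, was at 7.66 and 7.77 in KrasD12 and 8.16 and 8.15 in WT, and fell by 0.44 ± 0.07 (limma adjusted p = 0.00477). With Gfpt2 (-0.36) and Pgm3 (-0.21), named after their values were seen, 4 of the 5 listed enzymes from glucosamine-6-phosphate synthesis to UDP-N-acetylglucosamine fell, and the fifth, Gfpt1, stood at 0.105 ± 0.07 (limma adjusted p = 0.222). With an array left out the difference ran from -0.545 to -0.405 for Gnpnat1 and from -0.495 to -0.385 for Uap1. It ran from -0.39 to -0.33 for Gfpt2 and from -0.235 to -0.185 for Pgm3. Without WT A or WT B none of these genes kept its call, and Gfpt2 and Pgm3 also lost theirs without either KrasD12 array.

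On the glucuronic acid side Pgm1 was at 8.31 in both KrasD12 arrays and at 8.80 and 8.77 in WT. It fell by 0.475 ± 0.065 (limma adjusted p = 0.00275). Pgm1 and Pgm2 are symbols of the GRCm38.p6 gene table, and which enzyme each stands for was not checked. Pgm2 was at 8.70 and 8.61 in KrasD12 and at 8.13 in both WT arrays, a rise of 0.525 ± 0.07 (limma adjusted p = 0.00256), which was 0.18 and not called after centring (adjusted p = 0.0946). The pair thus went in opposite directions, with the rise of Pgm2 called on 3 of the 4 scalings. Ugdh, which oxidises UDP-glucose to UDP-glucuronic acid, stood at 0.11 ± 0.07 (limma adjusted p = 0.206) and Ugp2 at 0.005 ± 0.09 (limma adjusted p = 0.965). Uxs1, the tenth gene of the list, which consumes UDP-glucuronic acid, fell by 0.355 ± 0.07 (limma adjusted p = 0.00678, and 0.0506 without KrasD12 B).

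Of 7 genes for heavy chains, a pentraxin and other stabilisers of hyaluronan matrices, 1 rose and 1 fell on both scalings (14.3% each). Over all genes 22.4% rose and 11.5% fell. Ptx3 held the largest fall and Itih5 the largest rise of the 52 pathway genes. Ptx3, a pentraxin that binds TSG-6 and heavy chains in hyaluronan matrices, was at 5.91 and 5.76 in KrasD12 and at 8.40 and 8.71 in WT. The groups lay more than 2 log2 units apart. Ptx3 fell by 2.72 ± 0.12 (limma adjusted p = 0.000279), to 0.152 of the WT signal, and stood at -2.965 after quantile normalization. Itih5, of the inter-alpha-trypsin inhibitor heavy chain family, was at 5.30 and 5.56 in KrasD12 and at 4.11 and 4.17 in WT, a rise of 1.29 ± 0.10 (limma adjusted p = 0.000822). Its WT mean lay below the dim level, and the rise was 0.89 after quantile normalization. The other 5 of the 7 genes, Itih1 to Itih4 and Ambp, were not called on both scalings.

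Among other hyaluronan-degrading genes, Cemip, needed for depolymerisation of hyaluronan by fibroblasts, was at 10.92 and 10.85 in KrasD12 and at 11.93 and 11.86 in WT. Samples of a line lay within 0.07 of each other. Cemip fell by 1.01 ± 0.07, to 0.497 of the WT signal (limma adjusted p = 0.000666), beside a median of -0.14 (-0.1375) among genes of like mean, and -0.91 after quantile normalization. Its relative Cemip2 stood at 0.275 ± 0.07, called on the deposited values only. Of the 9 measured genes in this list Cemip was the only gene called on both scalings (11.1% fell, against 11.5% of all genes). Hyal2 thus rose and Cemip fell on all 4 scalings tried. The 4 testis-type and related genes Hyal4, Hyal5, Hyal6 and Spam1 were below the dim level in both groups.

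**Figure D4:**
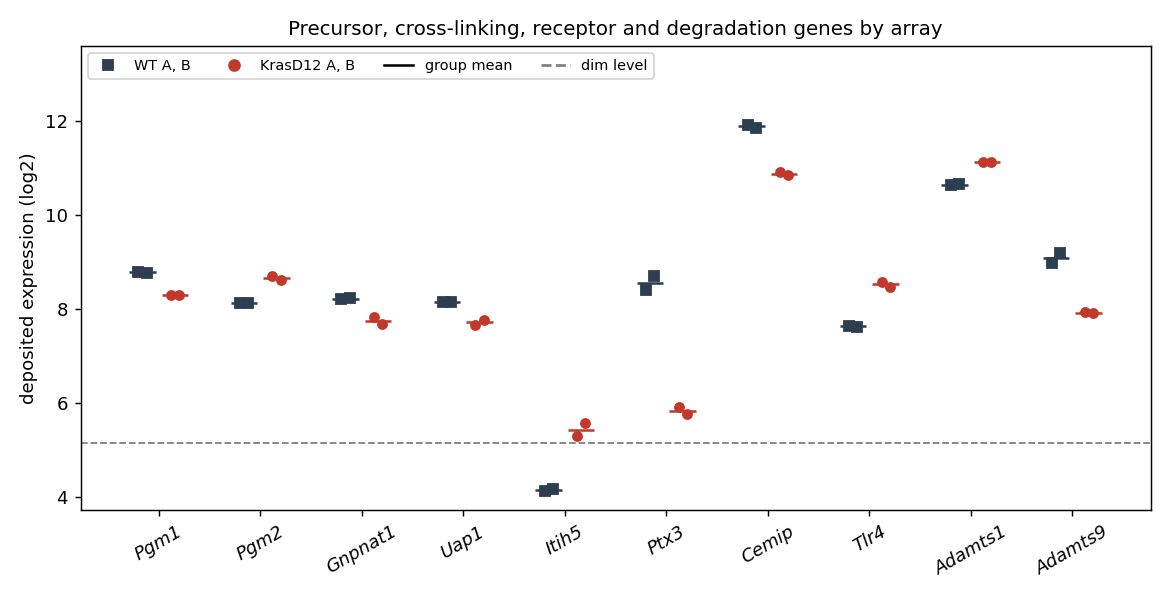
Deposited log2 expression (y axis) of 10 named pathway genes in each array: squares are WT A and B, circles are KrasD12 A and B, short bars the group means and the dashed line the dim level. Ptx3, Cemip, Adamts9, Pgm1, Gnpnat1 and Uap1 are lower in both KrasD12 arrays than in both WT arrays, and Pgm2, Itih5, Tlr4 and Adamts1 are higher.

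Of 10 other receptors and binding proteins, 2 rose and 0 fell on both scalings, near the 22.4% of all genes that rose (4 of the 10 were lower after quantile normalization alone). Tlr4, a pattern receptor that hyaluronan fragments are reported to engage, was at 8.57 and 8.48 in KrasD12 and at 7.64 and 7.62 in WT, a rise of 0.895 ± 0.07 (limma adjusted p = 0.000792). Stab2, a clearance receptor of sinusoidal endothelium, was at 5.63 and 5.69 in KrasD12 and at 4.77 and 4.86 in WT, a rise of 0.845 ± 0.07 (limma adjusted p = 0.000925) from a WT mean below the dim level. None of the 6 endothelial markers was called on both scalings, and their median difference was 0.33 (0.3325) as deposited and -0.06 (-0.0606) after quantile normalization, where Stab2 stood at 0.45 (adjusted p = 0.00406 by limma). The part of endothelial RNA in the Stab2 value was not tested. None of the 5 other lecticans and link proteins was called on both scalings, with differences from 0.05 to 0.57.

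CD44 is tied to the actin cortex by ezrin, radixin and moesin, and these 3 genes went in different directions. Ezr was at 8.34 and 8.21 in KrasD12 and 7.86 and 7.89 in WT and rose by 0.40 ± 0.08 (limma adjusted p = 0.00746). Rdx was at 10.27 and 10.07 in KrasD12 and 9.66 and 9.70 in WT and rose by 0.49 ± 0.09 (limma adjusted p = 0.00657). Msn was at 10.55 and 10.48 in KrasD12 and at 10.90 in both WT arrays and fell by 0.385 ± 0.07 (limma adjusted p = 0.00585). Without KrasD12 B, Msn missed the threshold at adjusted p = 0.0504. Ezr and Rdx stayed above 0 after centring but were not called (0.055 and 0.145), and after cyclic loess Ezr also missed the threshold (0.225, adjusted p = 0.0532) while Rdx was called (adjusted p = 0.00462). Mmp14, a membrane protease that can shed CD44, rose by 0.245 ± 0.07 (limma adjusted p = 0.0285) and by 0.41 after quantile normalization, though it stood at -0.10 after centring and was not called with any of the 4 arrays left out (adjusted p of 0.0668 to 0.121). Adam10 stood at -0.05. Of these 5 measured genes 3 rose (60.0%) and 1 fell (20.0%) on both scalings, against 22.4% and 11.5% of all genes.

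Of 6 proteases that cut versican, 1 rose and 1 fell on both scalings (16.7% each), near the 22.4% and 11.5% of all genes. Adamts1 was at 11.13 and 11.14 in KrasD12 and at 10.64 and 10.67 in WT, a rise of 0.48 ± 0.065 (limma adjusted p = 0.00269), which was 0.135 and not called after centring. Adamts9 was at 7.93 and 7.92 in KrasD12 and at 8.99 and 9.19 in WT, and fell by 1.165 ± 0.09 (limma adjusted p = 0.00076, and 0.0523 without KrasD12 B). Its 6 rows differed by -1.165 to -0.565. Adamts5 stood at -0.07 ± 0.07 (limma adjusted p = 0.412).

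**Figure D5:**
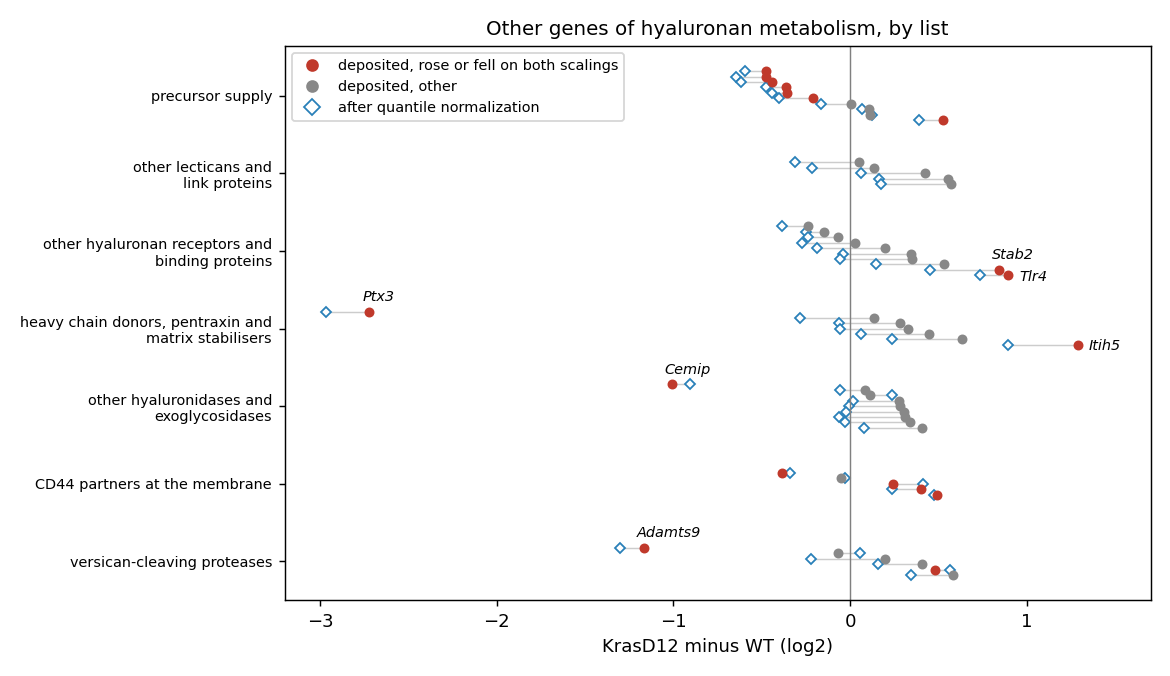
KrasD12 minus WT (x axis, log2) of 52 genes of hyaluronan metabolism by list (y axis), as deposited (circles, red where called in the same direction on both scalings) and quantile-normalized (open diamonds). Ptx3, Adamts9 and Cemip lie at -2.72, -1.165 and -1.01 and Itih5 at 1.29. In the precursor list 6 of 10 genes fell on both scalings (60.0%, against 11.5% of all genes). They include Uxs1, which consumes UDP-glucuronic acid.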

How the data were processed

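The authors deposited 1 log2 expression value per array row and sample (28944 rows, 2.28 to 14.95), the unit being read from the values. Per the submitters' processing notes, the Transcriptome Analysis Console was used. Its version, the normalization and a genome build are not given among the sources at hand. The platform annotation gave exactly 1 symbol to 21789 rows, several to 1621 and none to 5534, and 21698 rows were named through the GRCm38.p6 gene table. The highest-mean row stood for each of the 999 genes with several rows.

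Differences were tested in R 4.3.3 with limma 3.58.1, by lmFit and eBayes with group as the only term (two-sided, Benjamini-Hochberg over 19938 genes). The analysis was tested on simulated data. Tables and plots used Python 3.11.15, pandas 2.3.3 and matplotlib 3.10.9. For arrays, their number limits the precision: 2 per group. Members and lists were chosen with earlier results of these data known. Named are all members and, of each list, up to 4 called genes with the largest differences, or else the largest, plus genes beside a member. Values of Hyal3, Gfpt1, Gfpt2, Pgm3, Ugdh, Ugp2, Uxs1, Cemip2, Adam10 and Adamts5 are given outside this rule. Alternatives were other column scalings, a replicate block, a dim filter, eBayes with trend, the mean of rows, each array left out, an added 2-fold size, and, chosen after seeing the data, calls on both scalings. Some listed items are not reported here.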

Additional observations from a re-analysis of the deposited data

How the results depend on the processing

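Numbers called higher and lower on the deposited values were 9991 and 2381 of all genes, 6 and 0 of the members, and 23 and 10 of the pathway genes. Quantile normalization gave 4485 and 4861, 3 and 0, and 9 and 16. Cyclic loess gave 4533 and 4933, 3 and 1 (Cd44), and 7 and 16, and centring gave 3574 and 6657, 2 and 1 (Cd44), and 4 and 21. Calls on both scalings numbered 4459 and 2298, 3 and 0, and 8 and 10. An added 2-fold size left 728 and 257, 0 and 0, and 1 and 3. With 1 array left out, counts ran from 0 to 4623 and 0 to 1160 over all genes, 0 to 2 higher among members, and 0 to 13 and 0 to 8 among pathway genes. Limma called 0 genes without WT A or WT B, where 9846 and 10022 had an unadjusted p under 0.05.

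With the replicate letter as a replicate block, 8350 genes were higher and 1910 lower, 5 members higher, and 19 and 9 pathway genes. Has1 lost its call (adjusted p = 0.073), as did Mmp14 (adjusted p = 0.052) and Pgm3 (adjusted p = 0.0617), and it changed no other call of a named gene. Same-letter samples did not deviate together over genes (r = 0.0132), so the letters are not taken as pairs. 

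Direction turned for Has1 (-0.0925 quantile, -0.11 cyclic loess, -0.045 centred), Has2 (-0.14, -0.16 and -0.15), Has3 (-0.31, -0.27 and -0.255), Hyal3 (-0.0269, -0.0471 and -0.005), Ugp2 (-0.165, -0.1743 and -0.34), Adamts5 (0.0575 quantile, 0.0357 cyclic loess), and after centring for Vcan (-0.055), Mmp14 (-0.10), Gfpt1 (-0.24), Ugdh (-0.235) and Cemip2 (-0.07). With an array left out Has3 ran from -0.065 to 0.245, Cd44 from -0.035 to 0.015 and Ugp2 from -0.105 to 0.115. The cause was not tested. The dim filter, eBayes with trend and robust, and the mean of rows turned no direction and lost no call of a member they tested. The dim filter removed Has3, Tnfaip6 and Hapln1.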
